A study of Homo sapiens with 18 samples.

Results

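The 10 genes described here write or erase repressive chromatin marks: the Polycomb core subunits EZH2, SUZ12 and EED, the maintenance DNA methylation pair UHRF1 and DNMT1, the de novo DNA methyltransferases DNMT3A and DNMT3B, and the 5-methylcytosine oxidases TET1, TET2 and TET3. They were picked by name from the count tables, and all 10 were found once each among the 40916 gene symbols listed. Polyadenylated RNA was counted in 18 libraries, 3 biological replicates in each of 6 groups. MCF10A, a non-transformed human mammary epithelial line, carried a histone H2B-GFP reporter. HCT116, a human colorectal carcinoma line, was unlabelled. The third kind of culture was a mixture of both, described as holding them in equal parts. Cultures of each kind received either no irradiation (NIR) or a dose of 10 Gy of ionising radiation (IR). Harvest was on day 2 according to the titles, or after 72 h according to the series text. MCF10A was grown in an F12 and DMEM mixture with horse serum, EGF, hydrocortisone, cholera toxin and insulin, and HCT116 in McCoy's medium with fetal bovine serum, so the line and its medium cannot be told apart. The medium of the mixtures and the number of clones behind each line are not given in the sources used here.

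Polycomb repressive complex 2 (PRC2) methylates lysine 27 of histone H3: EZH2 is its catalytic subunit, EED reads the mark and stimulates the enzyme, and SUZ12 holds the complex together. When DNA is copied, UHRF1 recognises hemimethylated CpG sites and recruits DNMT1, which restores the methyl group on the new strand, while DNMT3A and DNMT3B methylate unmethylated DNA. TET enzymes oxidise 5-methylcytosine, the first step of active demethylation. E2F transcription factors drive many genes at the start of DNA replication, and EZH2, EED, UHRF1 and DNMT1 are known among their targets.

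Since EZH2, SUZ12, UHRF1 and DNMT1 had the smallest adjusted p of the 10 for their fall after irradiation in every kind of culture, the 250 bases upstream of a RefSeq start of each are shown 5′ to 3′ on the gene's strand, with E2F-type words in capitals. The words, searched on both strands, were TTGGCGC with its variants TTCGCGC (C for the first G), then TTGCCGC (C for the second G) and lastly TTCCCGC (C for both).
EZH2, chr7:148884292-148884541, minus strand: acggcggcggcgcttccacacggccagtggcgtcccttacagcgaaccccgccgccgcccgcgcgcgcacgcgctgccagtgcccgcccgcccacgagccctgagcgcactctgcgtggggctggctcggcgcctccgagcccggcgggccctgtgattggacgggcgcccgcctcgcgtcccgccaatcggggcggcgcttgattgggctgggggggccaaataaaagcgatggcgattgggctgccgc
SUZ12, chr17:31936757-31937006, plus strand: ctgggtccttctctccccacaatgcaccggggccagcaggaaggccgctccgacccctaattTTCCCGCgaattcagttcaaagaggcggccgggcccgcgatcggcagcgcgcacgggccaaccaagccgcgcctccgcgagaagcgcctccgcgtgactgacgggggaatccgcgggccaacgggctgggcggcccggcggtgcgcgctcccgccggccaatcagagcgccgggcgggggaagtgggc
UHRF1, first of 3 listed starts, chr19:4909251-4909500, plus strand: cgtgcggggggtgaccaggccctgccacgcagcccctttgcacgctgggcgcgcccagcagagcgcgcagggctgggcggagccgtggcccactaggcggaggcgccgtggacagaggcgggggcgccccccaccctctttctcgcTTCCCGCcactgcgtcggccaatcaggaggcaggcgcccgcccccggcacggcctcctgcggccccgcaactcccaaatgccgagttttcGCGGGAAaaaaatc
DNMT1, chr19:10194954-10195203, minus strand: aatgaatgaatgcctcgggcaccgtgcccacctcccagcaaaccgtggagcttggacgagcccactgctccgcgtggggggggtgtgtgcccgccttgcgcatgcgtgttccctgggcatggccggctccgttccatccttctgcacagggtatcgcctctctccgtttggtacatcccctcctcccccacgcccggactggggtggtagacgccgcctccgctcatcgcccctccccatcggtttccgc
The coordinates are those of GRCh38.p14. SUZ12 held 1 such word and the first UHRF1 window 2, while the EZH2 and DNMT1 windows held none of these letters. All 10 members were matched in the RefSeq promoter table, with 22 starts, some of whose windows overlap. Of these 22, 4 windows of 3 members (SUZ12, UHRF1 and TET3) held an E2F-type word, and 10.9% of all 35116 windows of this length did. CCAAT was searched on both strands and can share letters with the reverse of TTGGCGC when a T follows it. It occurred 4 times in the EZH2 window shown, the first of 2 listed starts, and 0 times at the other. The SUZ12 and first UHRF1 windows held it 1 time each and the DNMT1 window 0 times. CCAAT occurred in 32.0% of all windows. The cell cycle homology word TTTGAA occurred once upstream of SUZ12 and in 13.3% of all windows. Of the windows shown, that of EZH2 held 38 CpG dinucleotides, that of SUZ12 34, that of UHRF1 28 and that of DNMT1 21. The median over all windows was 11. A match is a run of letters and was not tested as a binding site.

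The genes were located in GENCODE v29 (GRCh38). Of the PRC2 core, EZH2 lies at chr7:148807383-148884291, SUZ12 at chr17:31937007-32001038 and EED at chr11:86244753-86287615. The maintenance pair shares a chromosome, with UHRF1 at chr19:4903080-4962154 and DNMT1 at chr19:10133346-10194953. DNMT3A (chr2:25227874-25342590) and TET3 (chr2:73983631-74135498) lie on chromosome 2, DNMT3B at chr20:32762385-32809356, TET1 at chr10:68560337-68694487 and TET2 at chr4:105145875-105279803.

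The libraries held 25737818 to 40839835 counts, and the values 1 to 10 were even in 68.4% of cases. Basal mammary markers summed to 10060 to 10880 CPM (counts of a gene per 1000000 counts of its library) in MCF10A NIR and 263.8 to 277.5 CPM in HCT116 NIR, where TP63 had no counts. Irradiation came with higher sums: 16950 to 17340 CPM in MCF10A, 366.8 to 394.9 CPM in HCT116, where 7 of 8 tested markers were called higher, and 542.9 to 614.5 CPM in the mixtures, against 278.9 to 295.3 CPM without it. The part of this shift in the responses of the 10 enzymes was not tested. Intestinal markers were low in HCT116, summing to 48.2 to 56.1 CPM, with CDX1 and ASCL2 at 0 and CDX2 at 10.0 CPM, against no CDX2 counts in MCF10A. The mixtures carried little MCF10A RNA: 0.420% ± 0.0685 of counted RNA without irradiation and 1.23% ± 0.0511 after it (SD, n = 3 each), estimated from line-specific genes. Proliferation genes moved with irradiation in every kind of culture. The summed level of 22 replication and proliferation genes lay between 3919 and 3955 CPM in MCF10A NIR and between 1586 and 1637 CPM in MCF10A IR. In HCT116 the sums lay between 5540 and 5678 CPM without irradiation and between 2340 and 2408 CPM after it. Their part in the changes described below was not tested. In bulk RNA, fewer cells in cycle and less RNA of a gene per cell cannot be told apart.

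Comparing irradiated with non-irradiated cultures of the same kind asked how the enzymes' transcripts stood after 10 Gy. In MCF10A, 8 of the 10 genes fell and 1, DNMT3A, rose, at an adjusted p under 0.05 from edgeR's quasi-likelihood test. Of all 15154 genes tested there, 29.2% were called lower, 26.2% higher and 55.4% in either direction. The median log2 fold change of the 10 was -0.72 and that of all genes 0.003. In HCT116, 6 fell and 2, TET2 and TET3, rose, where 27.2% of 16857 genes were called lower, 25.3% higher and 52.5% in either direction. The median of the 10 was -0.40 and that of all genes 0.007. In the mixtures, 6 fell and 1, TET3, rose, against 25.4% lower, 24.0% higher and 49.4% in either direction of 16906 genes. All 10 passed the filter on low counts in each comparison.

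**Figure D1:**
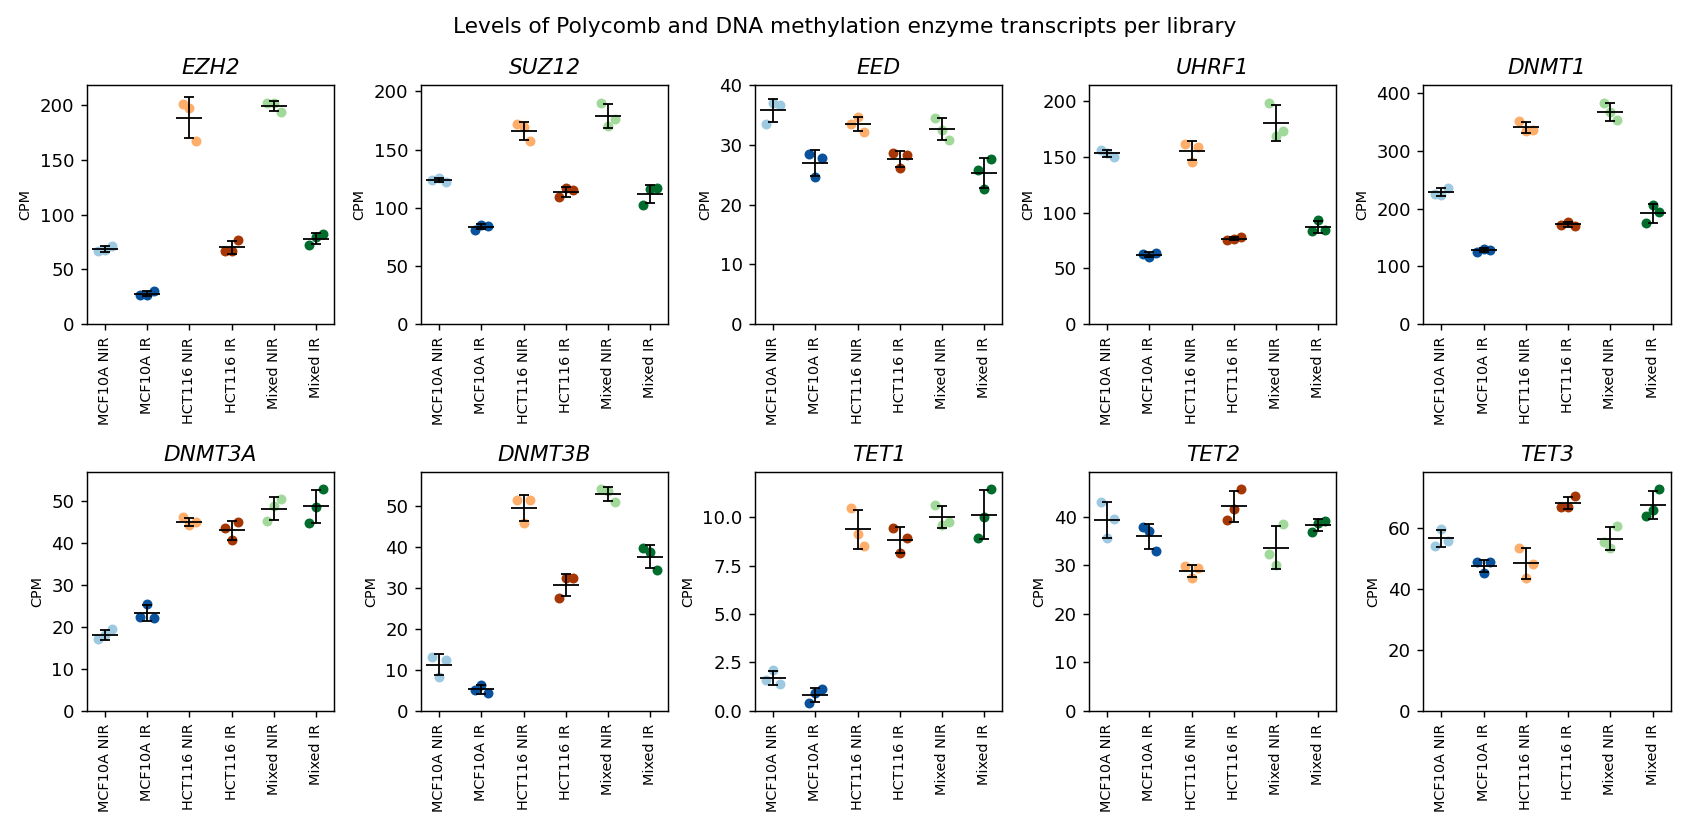
Level of each of the 10 transcripts in CPM (linear axis from 0) in the 6 groups. Points are libraries and bars give the mean and SD of 3 libraries. EZH2, SUZ12, UHRF1 and DNMT1 are lower in every irradiated library than in any non-irradiated library of the same culture, while TET2 and TET3 are higher in every irradiated HCT116 library.

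EZH2, the PRC2 methyltransferase, had one of the deepest falls of the set. In MCF10A its level was 66.9, 67.9 and 71.7 CPM in the 3 NIR libraries and 26.5, 26.7 and 30.7 CPM in the IR libraries. The groups did not overlap, and the fall was 2.49-fold (log2 fold change -1.32, SE 0.07, adjusted p 2.42e-15 in edgeR). HCT116 started higher, at 201.1, 197.8 and 167.1 CPM, and reached 67.0, 66.4 and 76.9 CPM after irradiation. That was a 2.68-fold fall (log2 fold change -1.42, SE 0.07, adjusted p 1.48e-13 in edgeR), and it left irradiated HCT116 near the level of untreated MCF10A. In the mixtures EZH2 went from 201.9, 202.6 and 194.0 to 72.4, 79.4 and 82.4 CPM (log2 fold change -1.38, SE 0.06).

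SUZ12, the scaffold subunit, fell by less. It stood at 123.7, 125.4 and 122.0 CPM in MCF10A NIR and at 81.1, 85.1 and 84.6 CPM in MCF10A IR, a 1.5-fold fall (log2 fold change -0.59, SE 0.05). In HCT116 it went from 172.0, 169.1 and 157.2 to 108.8, 116.7 and 115.0 CPM (log2 fold change -0.54, SE 0.06), and in the mixtures from 190.3, 170.1 and 176.5 to 102.4, 115.8 and 116.8 CPM (log2 fold change -0.71, SE 0.06). The NIR and IR libraries were apart in every kind of culture, and all 3 falls were called.

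EED, the subunit that reads trimethylated lysine 27, had the mildest fall of the complex. Its MCF10A levels were 33.6, 37.1 and 36.8 CPM without irradiation and 28.6, 24.6 and 27.9 CPM after it (log2 fold change -0.43, SE 0.08, edgeR adjusted p 4.41e-05). In HCT116 they were 33.5, 34.7 and 32.3 CPM and then 28.6, 26.2 and 28.4 CPM (log2 fold change -0.27, SE 0.08, edgeR adjusted p 0.0106). Groups did not overlap in either line, but the HCT116 call rested on 1 library: without HCT116 IR replicate 2 its adjusted p was 0.0526 (log2 fold change -0.23). In the mixtures the log2 fold change was -0.39 (SE 0.09). Thus the 3 core subunits fell together but by unequal amounts, with point estimates in the order EZH2, SUZ12, EED in every kind of culture. Per kilobase of exon, SUZ12 and EZH2 stood at 27.5 and 22.5 CPM per kb in MCF10A NIR and EED at 9.86. After irradiation of MCF10A, EZH2 was at 9.13 and EED at 7.44 CPM per kb.

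UHRF1, which brings DNMT1 to newly copied DNA, fell from 156.3, 153.4 and 149.8 CPM to 62.7, 60.3 and 64.1 CPM in MCF10A. This was a 2.49-fold fall (log2 fold change -1.32, SE 0.05, edgeR adjusted p 1.34e-18). In HCT116 it fell 2.02-fold, from 161.7, 145.7 and 158.9 CPM to 75.5, 76.4 and 78.3 CPM (log2 fold change -1.01, SE 0.06). In the mixtures it went from 198.6, 168.3 and 173.3 to 83.9, 93.3 and 84.5 CPM (log2 fold change -1.07, SE 0.07). No irradiated library reached a non-irradiated one.

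DNMT1, the maintenance methyltransferase, was the most abundant of the 10 per kilobase in every group, at 41.9 CPM per kb in MCF10A NIR and 62.6 in HCT116 NIR, where EZH2 followed at 61.6, within the spread of the libraries. In MCF10A NIR it stood at 226.4, 223.4 and 236.4 CPM, and in MCF10A IR at 124.3, 131.0 and 128.6 CPM (log2 fold change -0.86, SE 0.05, edgeR adjusted p 1.87e-15). In HCT116 it went from 352.8, 335.4 and 336.5 to 171.3, 177.7 and 169.9 CPM (log2 fold change -0.97, SE 0.06, edgeR adjusted p 1.22e-12). The mixtures gave a log2 fold change of -0.97 (SE 0.06). As for EZH2, SUZ12, EED, UHRF1 and DNMT3B, the irradiated and non-irradiated DNMT1 libraries did not overlap in any kind of culture. The share of all genes whose libraries separated likewise was not counted, so this is not shown to be particular to these genes.

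The de novo enzymes DNMT3A and DNMT3B did not move together. DNMT3B fell in every kind of culture. In MCF10A NIR it was at 13.1, 8.34 and 12.4 CPM, and in MCF10A IR at 5.11, 6.38 and 4.29 CPM (log2 fold change -1.13, SE 0.17, edgeR adjusted p 1.57e-06). In HCT116 it dropped from 51.4, 45.8 and 51.4 CPM to 27.5, 32.4 and 32.3 CPM (log2 fold change -0.68, SE 0.09). In the mixtures its log2 fold change was -0.52 (SE 0.08).

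DNMT3A rose in MCF10A, from 17.1, 18.0 and 19.4 CPM to 22.5, 25.4 and 22.1 CPM (log2 fold change 0.34, SE 0.09, edgeR adjusted p 0.00319), with no overlap between groups. In HCT116 it stood at 46.1, 44.3 and 44.9 CPM before and 43.5, 40.7 and 45.1 CPM after irradiation, and the groups overlapped. The log2 difference there was -0.06 with a 95% interval of -0.21 to 0.10, and in the mixtures -0.01 with an interval of -0.17 to 0.15. DNMT3A has several promoters and isoforms, 6 starts of it being listed in RefSeq, and counts per gene do not separate them. In MCF10A the order of both transcripts differed between the groups: per kilobase, DNMT3B was at 2.44 and DNMT3A at 1.69 CPM per kb without irradiation, and at 1.14 and 2.17 after it. In CPM, DNMT3A was above DNMT3B in both, at 18.2 against 11.3 without irradiation and 23.3 against 5.26 after it. The switch thus rests on the exon lengths used, 10736 bases for DNMT3A and 4630 for DNMT3B.

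The TET oxidases gave the least uniform picture. TET3 fell in MCF10A, from 54.2, 59.8 and 55.8 CPM to 48.7, 45.3 and 48.8 CPM (log2 fold change -0.27, SE 0.06, edgeR adjusted p 0.000677). It rose in HCT116, from 53.6, 43.6 and 48.1 CPM to 67.0, 67.1 and 70.7 CPM (log2 fold change 0.50, SE 0.08, edgeR adjusted p 6.46e-06). Neither pair of groups overlapped. In the mixtures its levels were 55.5, 53.5 and 60.8 CPM and then 63.9, 65.9 and 72.7 CPM (log2 fold change 0.23, SE 0.07, edgeR adjusted p 0.0118). That call was lost without mixed NIR replicate 2 (0.19, adjusted p 0.0588) or mixed IR replicate 3 (0.17, adjusted p 0.10).

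TET2 rose in HCT116, from 29.8, 27.4 and 29.4 CPM to 39.2, 41.7 and 45.7 CPM (log2 fold change 0.55, SE 0.08, edgeR adjusted p 6.73e-06). In MCF10A it was at 43.0, 35.7 and 39.5 CPM and then at 37.8, 37.1 and 33.1 CPM, and the groups overlapped (log2 difference -0.15, 95% interval -0.31 to 0.007). Without MCF10A NIR replicate 2, its lowest non-irradiated library, this difference was called at -0.21 (adjusted p 0.0304). In the mixtures it was at 32.3, 30.0 and 38.5 CPM and then at 37.0, 38.7 and 39.2 CPM (log2 difference 0.16, 95% interval -0.02 to 0.34), and without mixed NIR replicate 3 this was called at 0.26 (adjusted p 0.0133).

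TET1 was the scarcest of the 10 per kilobase in every group, at 0.181 CPM per kb in MCF10A NIR and 1.01 in HCT116 NIR. In MCF10A it was at 1.59, 2.09 and 1.37 CPM without irradiation and at 0.404, 0.912 and 1.15 CPM after it (log2 fold change -1.04, SE 0.39, edgeR adjusted p 0.0237). The lowest of these libraries held 11 TET1 counts, and the call was lost without MCF10A IR replicate 1 (-0.72, adjusted p 0.131) or MCF10A NIR replicate 2 (-0.84, adjusted p 0.115). In HCT116 TET1 stood at 10.5, 9.11 and 8.51 CPM and then at 9.44, 8.13 and 8.90 CPM, a log2 difference of -0.08 with a 95% interval of -0.37 to 0.20.

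**Figure D2:**
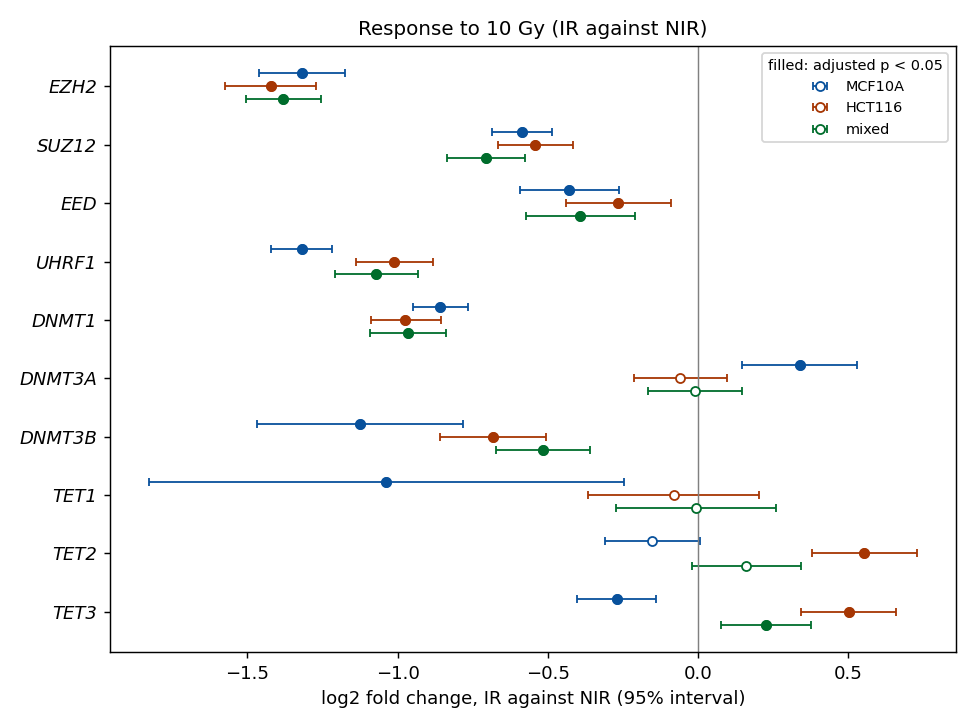
Log2 fold change of each transcript after 10 Gy in MCF10A, HCT116 and the mixtures, with 95% intervals from the edgeR fits. Filled points had an adjusted p under 0.05. EZH2, SUZ12, EED, UHRF1, DNMT1 and DNMT3B lie left of 0 in all 3 kinds of culture, and TET2 and TET3 lie on opposite sides of 0 in MCF10A and HCT116.

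Whether the lines responded differently was tested as the difference of their responses in a fit of 12 libraries (HCT116 minus MCF10A). The median difference over all 18179 genes was -0.105, with 15.4% called higher, 21.9% lower and 37.3% in either direction. This median moved between fits: it was 0.006 to 0.008 without any 1 of the MCF10A IR libraries and -0.012 without HCT116 IR replicate 2. Higher calls then made up 52.8% to 53.9% of all calls, against 41.3%. In the fit of all 18 libraries, with none left out, the median was -0.014 and higher calls made up 51.8%. Of the 10 transcripts, 4 were called higher and 2 lower. TET3 differed most clearly, by 0.70 (SE 0.10, edgeR adjusted p 4.61e-06), followed by TET2 at 0.63 (SE 0.12, edgeR adjusted p 0.000119). Both kept an adjusted p under 0.05 in each of the alternative fits run. DNMT3A differed by -0.48 (SE 0.12, edgeR adjusted p 0.0019), and without MCF10A IR replicate 2 by -0.30 (adjusted p 0.056). UHRF1 fell by less in HCT116, by a difference of 0.23 (SE 0.08, edgeR adjusted p 0.019), which was 0.18 (adjusted p 0.0782) without HCT116 NIR replicate 2. For TET1 the difference was 0.87 (SE 0.34, adjusted p 0.0461), and for DNMT1 -0.19 (SE 0.07, adjusted p 0.0265). Both of these calls were lost in several alternative fits, DNMT1 with RLE size factors among them (-0.17, adjusted p 0.0528) and TET1 with counts halved (0.80, adjusted p 0.0673).

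The PRC2 core did not reach a call in this test, which does not show that the lines respond alike. The difference was -0.18 for EZH2 (95% interval -0.39 to 0.03), -0.03 for SUZ12 (-0.18 to 0.12) and 0.09 for EED (-0.15 to 0.32). Without HCT116 NIR replicate 3, the lowest of its group for EZH2, that difference was called at -0.26 (adjusted p 0.0418). DNMT3B differed by 0.37 (95% interval -0.04 to 0.77), and was called without MCF10A NIR replicate 2 (0.54, adjusted p 0.0148) or MCF10A IR replicate 2 (0.64, adjusted p 0.0159).

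Before irradiation 6 of these transcripts were called higher and 4 lower in HCT116 than in MCF10A, and with other scalings 2 of the lower calls, EED and UHRF1, were lost. In this comparison 38.7% of 16568 genes were called higher, 36.1% lower and 74.8% in either direction. TET1 had the largest ratio, 4.82-fold (log2 2.27, SE 0.21), then DNMT3B at 3.84-fold (log2 1.94, SE 0.13). EZH2 was 2.39-fold higher (log2 1.26, SE 0.07) and DNMT3A 2.16-fold (log2 1.11, SE 0.08). DNMT1 was 1.3-fold higher (log2 0.38, SE 0.05) and SUZ12 1.17-fold (log2 0.23, SE 0.05). TET2 was lower by 0.65 on the log2 scale (-0.65, SE 0.09) and TET3 likewise (-0.42, SE 0.08).

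EED (-0.30, SE 0.08) and UHRF1 (-0.18, SE 0.06) were called lower in HCT116 with overlapping libraries. UHRF1 stood at 153.2 ± 3.25 CPM in MCF10A and 155.4 ± 8.56 CPM in HCT116 (SD, n = 3), and its direction rested on the scaling. Upper-quartile factors and library size alone, which moved the median of all genes from 0.05 to 0.25, turned it to 0.03 and 0.02 and took the EED call away (-0.09 and -0.10, adjusted p 0.30 and 0.285). Without HCT116 NIR replicate 2, UHRF1 was at -0.13 (adjusted p 0.0638).

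After irradiation 7 of the 10 were higher in HCT116 and 1 lower, against 38.1% higher, 36.8% lower and 74.9% in either direction of 16932 genes. TET1 was 8.94-fold higher (log2 3.16, SE 0.25), DNMT3B 5.0-fold (log2 2.32, SE 0.13) and EZH2 2.13-fold (log2 1.09, SE 0.08). DNMT3A was 1.58-fold higher (log2 0.66, SE 0.08). TET3, lower in HCT116 before irradiation, was now higher there (log2 0.29, SE 0.06). For TET2 the log2 difference was -0.001 (95% interval -0.16 to 0.16), and with upper-quartile factors or library size alone it was called higher at 0.18 and 0.23. For UHRF1 it was 0.07 (95% interval -0.05 to 0.19), and 0.25 and 0.30 with these scalings, both called. They moved the median of all genes here from 0.04 to 0.22 and 0.27. EED, at -0.19 (adjusted p 0.0495), lost its call in most alternatives, with 0.04 under library size alone.

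**Figure D3:**
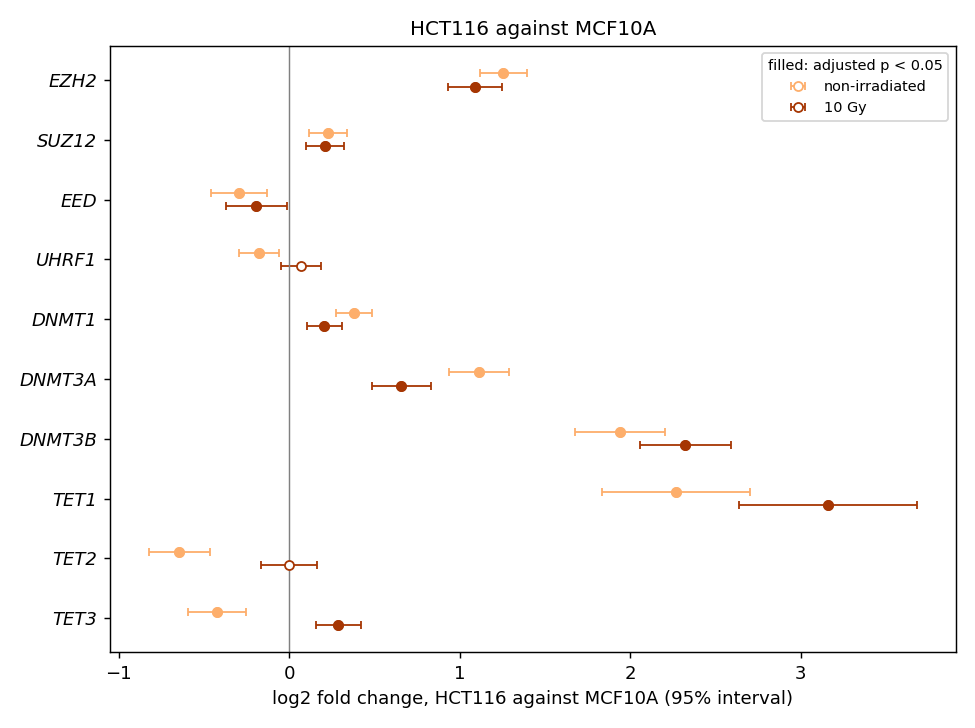
Log2 fold change of each transcript in HCT116 against MCF10A without irradiation and after 10 Gy, with 95% intervals from the edgeR fits. Filled points had an adjusted p under 0.05. TET1 and DNMT3B lie farthest to the right in both states, and TET3 changes side of 0 between them.

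Mixtures were compared with HCT116 monocultures to see whether these transcripts differed in co-culture. Nearly all RNA of the mixtures came from HCT116 by the shares above. Without irradiation 0 of the 10 were called by edgeR, where 2.04% of 16455 genes were called (0.887% higher, 1.15% lower). At an unadjusted p under 0.05 there were 4 (UHRF1, DNMT1, TET2 and TET3). The share of all genes under that threshold was not counted, so this number has no background. DESeq2 also called 0. The log2 differences ran from -0.02 for EED to 0.24 for TET3. UHRF1, at 0.23 (SE 0.07, adjusted p 0.105), was called when all genes were kept (0.23, adjusted p 0.0302), when all 18 libraries were fitted together (0.24, adjusted p 0.0166) and with replicate numbers as a block (0.23, adjusted p 0.0271).

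After irradiation 1 of the 10, DNMT3B, was called higher in the mixtures, where 8.56% of 17137 genes were called in either direction, 5.08% higher and 3.48% lower. It stood at 39.8, 38.7 and 34.4 CPM against 27.5, 32.4 and 32.3 CPM in irradiated HCT116 (log2 0.28, SE 0.08, edgeR adjusted p 0.0305), without overlap. The call was lost without HCT116 IR replicate 1 (0.21, adjusted p 0.155) or replicate 3 (0.32, adjusted p 0.0505), and without mixed IR replicate 1 (0.24, adjusted p 0.132) or replicate 2 (0.26, adjusted p 0.139). In the fit of 18 libraries DNMT3B was at 0.32 (adjusted p 0.0951). UHRF1, at 0.18 (adjusted p 0.0666), and DNMT1, at 0.14 (adjusted p 0.138), were called with the replicate block (adjusted p 0.0172 and 0.0246) and in the fit of 18 libraries (adjusted p 0.0348 and 0.045). EZH2 was at 0.15 (adjusted p 0.181).

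The responses of mixtures and HCT116 monocultures were compared directly, and 0 of the 10 differences were called by edgeR, against 0.830% of 18072 genes (0.681% higher, 0.149% lower). DESeq2 called 0 too. At an unadjusted p under 0.05 there were 2: TET2 at -0.38 (95% interval -0.63 to -0.13, adjusted p 0.158) and TET3 at -0.26 (-0.48 to -0.05, adjusted p 0.275), both rising less in the mixtures by point estimate. Here too the share of all genes under that threshold was not counted. For EZH2 the difference was 0.05 (95% interval -0.15 to 0.25) and for DNMT1 0.02 (-0.15 to 0.19).

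The partners of these enzymes were taken as lists written from general knowledge. Their counts stand beside shares over all genes of 29.2% lower and 26.2% higher in MCF10A and 27.2% lower and 25.3% higher in HCT116. Of 10 tested PRC2 partners, 6 fell and 1 rose in MCF10A, and 6 fell and 1 rose in HCT116. Their median log2 fold change was -0.26 in MCF10A and -0.27 in HCT116. PHF19, a Polycomb-like subunit that helps bring PRC2 to chromatin, fell in both lines. Its mean was 55.3 CPM before and 20.2 CPM after irradiation of MCF10A (log2 fold change -1.47, SE 0.07), and 37.5 and 14.7 CPM in HCT116 (-1.34, SE 0.09). The histone chaperone RBBP7 fell by 0.76 and 0.85 on the log2 scale (-0.76 and -0.85), and RBBP4 by 0.63 and 0.56 (-0.63 and -0.56). EZH1, the paralog that can replace EZH2 in non-dividing cells, was not called in either line (0.08, SE 0.09, and -0.14, SE 0.08). PHF1, another Polycomb-like subunit, moved in opposite directions. It rose from 16.7 ± 0.333 to 22.4 ± 1.35 CPM in MCF10A (SD, n = 3; log2 fold change 0.40). In HCT116 it fell from 34.0 ± 0.250 to 17.9 ± 0.882 CPM (log2 fold change -0.92), a response difference of -1.39 (SE 0.12, edgeR adjusted p 1.69e-09). JARID2, an accessory subunit, fell in MCF10A (-0.20) and rose in HCT116 (0.36), a difference of 0.48 (SE 0.08).

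Among 21 subunits of PRC1, which ubiquitinates histone H2A and binds the PRC2 mark, 13 fell and 1 rose in MCF10A, and 12 fell and 3 rose in HCT116, beside the same 29.2% and 26.2% of all genes in MCF10A and 27.2% and 25.3% in HCT116. Medians were -0.34 and -0.35. CBX2, a reader of the PRC2 mark, fell in both (-1.01 and -0.88), as did SCML2 (-0.99 and -1.19) and SCMH1 (-0.62 and -0.71). BMI1, a PCGF subunit of canonical PRC1, fell from 68.4 to 36.6 CPM in HCT116 (-0.90) and by less in MCF10A (-0.34), a difference of -0.64 (SE 0.10). CBX6 fell in MCF10A (-0.39) and rose in HCT116 (0.52), a difference of 0.82 (SE 0.09). The single rise in MCF10A, CBX7 (0.50, SE 0.18), was lost without either of 2 NIR libraries (replicate 2, 0.44, adjusted p 0.0625; replicate 3, 0.43, adjusted p 0.0747) or without IR replicate 1 or 3 (0.38, adjusted p 0.138; 0.48, adjusted p 0.062).

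Genes listed as opposing Polycomb repression, most but not all of them enzymes, were mixed. Of 8 tested, 5 fell and 2 rose in MCF10A, or 3 fell with upper-quartile factors, and 4 fell and 2 rose in HCT116. KDM6B, a demethylase of lysine 27, rose in both lines, with means of 20.5 ± 0.632 and 35.5 ± 1.16 CPM before and after in MCF10A (log2 fold change 0.77), and 45.8 ± 1.39 and 62.6 ± 4.16 CPM in HCT116 (SD, n = 3; log2 fold change 0.46). Its paralog KDM6A rose in MCF10A (0.33, SE 0.07) and was at -0.08 (SE 0.09, not called) in HCT116. NSD2, which methylates lysine 36, fell in both (-1.09 and -1.70), while NSD1, of the same family, fell in MCF10A (-0.38) and rose in HCT116 (0.59), a difference of 0.89 (SE 0.07, edgeR adjusted p 8.18e-11).

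Of 11 tested cofactors of DNA methylation, 10 fell and 0 rose in MCF10A (median -0.50), and 7 fell and 2 rose in HCT116 (median -0.49). CDCA7 and HELLS, which form a nucleosome remodeller needed for methylation of heterochromatin, fell in both lines. CDCA7 was at -1.51 and -1.03, and HELLS had means of 103.9 ± 3.62 and 49.2 ± 1.17 CPM before and after in MCF10A, and 247.5 ± 32.9 and 125.0 ± 5.59 CPM in HCT116 (SD, n = 3; -1.10 and -0.98). LIG1, the DNA ligase that binds UHRF1 through a methylated lysine, fell as well (-0.99 and -1.35). PCNA, the sliding clamp that also recruits DNMT1, stood apart. It fell from 278.8 ± 7.86 to 148.1 ± 3.78 CPM in MCF10A, and in HCT116 was at 273.9 ± 10.01 and 272.4 ± 8.19 CPM (SD, n = 3), a response difference of 0.86 (SE 0.07, edgeR adjusted p 2.56e-10). PCNA is also counted among the replication and proliferation genes, of which 22 of 22 fell in MCF10A and 21 of 22 in HCT116, and was the exception there. AHCY, which removes the product inhibitor of methyltransferases, rose in HCT116 (0.54) and was at -0.005 (not called) in MCF10A.

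Among 8 methyl-CpG binding proteins, 4 fell and 2 rose in MCF10A. Of all genes there, 29.2% were called lower, 26.2% higher and 55.4% in either direction. Whether the counts of so short a list depart from these shares was not tested. With upper-quartile factors 2 fell, and without IR replicate 1 only 1 rose. In HCT116 1 fell and 4 rose. There 2 rose when all genes were kept, with the replicate block or without IR replicate 3, and the falls were 2 without NIR replicate 3 and 0 without IR replicate 1. ZBTB4, a zinc finger protein that binds methylated CpG, rose in both lines (0.62 and 0.70). ZBTB38, of the same family, fell in MCF10A (-0.16) and rose in HCT116 (0.66). Before irradiation 7 of the 8 were lower in HCT116 than in MCF10A and 0 higher (36.1% and 38.7% of all genes), led by ZBTB38 (log2 -2.40), MBD4 (-1.75) and MBD2 (-1.12).

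Of 12 tested partners of the TET enzymes in demethylation, 7 fell and 0 rose in MCF10A (1 rose with upper-quartile factors), while 6 fell and 4 rose in HCT116. TDG, the glycosylase that excises oxidised methylcytosine, fell in MCF10A (-0.36, SE 0.06) and rose in HCT116 (0.49, SE 0.08), the same opposite directions as TET3, with a difference of 0.77 (SE 0.09, edgeR adjusted p 3.09e-07). The base excision repair gene XRCC1 fell in both (-0.65 and -1.11), and so did IDH2, which makes the 2-oxoglutarate that TET enzymes use (-0.26 and -0.97). OGT, which binds TET proteins, rose in HCT116 (0.36) and was at -0.03 (not called) in MCF10A.

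**Figure D4:**
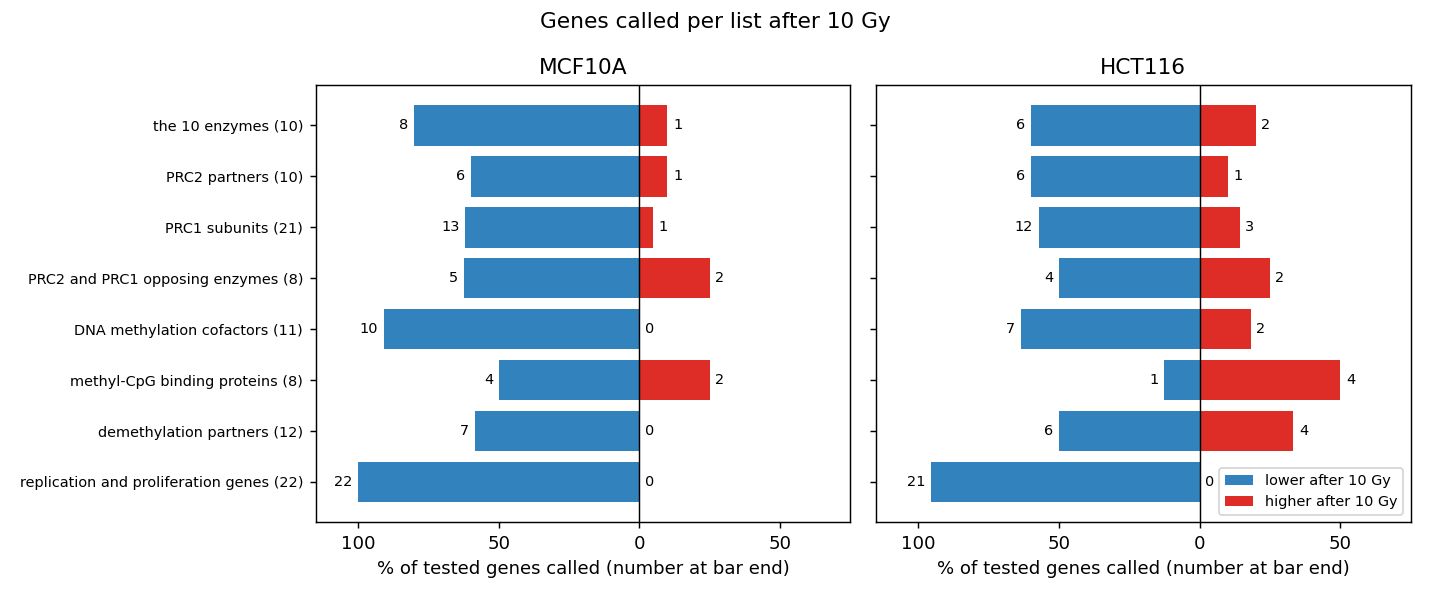
Share of the tested genes of each list called lower (left, blue) or higher (right, red) after 10 Gy in MCF10A and HCT116, in percent on a linear axis from 0. The number of genes tested is given beside each list name and the number called at each bar end. In MCF10A the 11 cofactors of DNA methylation and 12 partners of demethylation have 0 genes called higher, and in HCT116 they have 2 and 4.

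Genes with the most similar pattern were ranked by Pearson's r of log2(CPM + 1) over the 18 libraries, among 11310 genes with a mean of at least 5 CPM. The libraries share 6 groups and large line and irradiation differences, so many genes correlate. Closest to EZH2 were CDC6 (r = 0.998), XRCC6 and RMI1 (0.994 each). For SUZ12 they were ESCO2 (0.991), TYMS (0.989) and MCM7 (0.986), for UHRF1 SET, SKA3 (0.993 each) and LMNB1 (0.991), and for DNMT1 they included KIF22 (0.995) and LMNB2 (0.994). CDC6 is a replication licensing factor. The values stayed at 0.975 or above in the 12 libraries without MCF10A monocultures. EED was closest to YY1 (0.924) and TET3 to ELOF1 (0.925), and TET2 had RBFOX2 (0.888) among its 3 closest.

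For DNMT3A and TET1 the likeness was weaker without the MCF10A monocultures. DNMT3A was closest to PTPRS (0.990) and TET1 to TERF2 (0.992), and in the 12 libraries without MCF10A these were 0.542 and 0.704. The other genes ranked for TET1, RAC3 and ANKRD10 (0.989 each), were at -0.136 and 0.467 there. DNMT3B lay between, with ACVR2B at 0.991 over all libraries and 0.879 in the 12.

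The order of the group means did not follow the roles. For SUZ12, EED, UHRF1 and DNMT1 every non-irradiated group stood above every irradiated one. For EZH2, DNMT3A, DNMT3B and TET1 both MCF10A groups stood under the other 4. TET2 and TET3 followed neither order. EED ran from 22.6 to 37.1 CPM over the 18 libraries. TET2 ran from 27.4 CPM in HCT116 NIR to 45.7 CPM in HCT116 IR, so both ends of its range lay in HCT116. HCT116 and mixtures under the same treatment were neighbours in most of these orders, and of their differences 1, DNMT3B after irradiation, was called.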

How the data were processed

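The authors deposited 1 table of raw counts per gene symbol for each of 18 libraries, without normalization. Per the submitters' processing notes, fastp, STAR and featureCounts were used with GRCh38, and their versions, the annotation and whether mates were counted singly are not given in the sources used here. Per the labels, libraries were made with a stranded poly(A) kit. The deposited counts were mostly even at low values, so halved counts were tried as an alternative.

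The 10 genes were matched by symbol, and their levels are CPM over library totals (25737818 to 40839835 counts). Levels between genes are per kilobase of exon union in GENCODE v29. Each comparison was fitted across all genes with edgeR 4.0.16 in R 4.3.3 on the compared groups (TMM, filterByExpr, quasi-likelihood, 2-sided, Benjamini-Hochberg over all genes tested, threshold 0.05). Intervals are at 95%. Alternatives were RLE, upper-quartile and library-size scaling, no filter, DESeq2 1.42.0, halved counts, 1 fit of 18 libraries, a replicate block and leaving out each library. The fits of some of the comparisons were run on simulated counts. Those counts had the same mean levels in every group apart from a small, balanced set of changed genes. They cannot test how the results depend on scaling. Labels call the replicates biological but do not say how cultures were separated, so p-values measure the spread between these samples.

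The members and lists were chosen with earlier results of these data known. All 10 members were named. Of each list, up to 3 genes per direction with the largest called change and a mean of at least 5 CPM in the higher group were named. EZH1, and the value of a list gene in a comparison where this rule did not pick it, were added after their values were seen. Specific genes for the MCF10A share had at least 20 CPM in 1 line and stayed below 1 CPM throughout the other. Some genes, and a detail of a line's genotype, are not reported here.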

Additional observations from a re-analysis of the deposited data

Results flagged for a closer look

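Of the 10 transcripts, 6 responded to 10 Gy differently in HCT116 and MCF10A by a direct test of the difference in a fit of both lines (edgeR, adjusted p under 0.05), where 37.3% of all genes were called. The log2 differences, HCT116 minus MCF10A, were 0.695 for TET3, 0.628 for TET2, 0.874 for TET1, 0.23 for UHRF1, -0.475 for DNMT3A and -0.192 for DNMT1. Of these, TET3 fell in MCF10A and rose in HCT116, and DNMT3A rose in MCF10A and was not called in HCT116. UHRF1 and DNMT1 fell in both lines and differed in size. TET1 had as few as 11 counts in an MCF10A library. TET3 and TET2 kept their calls in each alternative fit, while the other 4 calls were each lost in at least 1: DNMT1 with RLE size factors (adjusted p 0.0528), TET1 with halved counts (0.0673), UHRF1 without HCT116 NIR replicate 2 (0.0782) and DNMT3A without MCF10A IR replicate 2 (0.056).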

How the results depend on the processing

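The log2 difference of each of the 10 genes in each alternative fit was set against its main value. A change of sign between values that were both not called was counted as kept. Over the alternatives that kept all libraries, 688 values were kept, 13 gained a call, 14 lost it and 5 changed sign. Leaving out 1 library, 623 were kept, 6 gained a call, 31 lost it and 0 changed sign by this count. The sign changes counted were all between the lines. Without irradiation they were those of UHRF1 (0.025 with upper-quartile factors, 0.022 with library size). After irradiation they were those of TET2 (0.181 and 0.23) and EED (0.037 with library size). The PRC2 partner RBBP7 also turned, to 0.073 and 0.07, without irradiation. These 2 scalings cut the members called lower in HCT116 without irradiation from 4 to 2, and the call after irradiation from 1 to 0, as did no filter, DESeq2, the fit of 18 libraries and the block. With them 62.4% and 62.2% of called genes were higher in HCT116 without irradiation, against 51.8%, and 60.2% and 62.4% after it, against 50.9%. Upper-quartile factors gave 57.5% higher after irradiation of MCF10A, against 47.4%. For the response difference between lines, no filter and the fit of 18 libraries gave 51.9% and 51.8% higher, against 41.3%. The members called lower there were 1, not 2, with RLE, library size, no filter or the fit of 18 libraries. For mixed against HCT116 without irradiation, all genes called higher were 146, and 308 with no filter, 278 with DESeq2, 490 in the fit of 18 libraries and 319 with the block. Lower calls were 189, and 363, 297 and 397 with no filter, DESeq2 and the block. Members called higher were 1 with no filter or the block and 2 in the fit of 18 libraries. After irradiation the 596 lower calls became 261 in the fit of 18 libraries and 957 with the block, and the members called higher 2 and 3, against 1. For the response difference of mixtures and HCT116, calls were 123 higher and 27 lower, and 253 and 83 with no filter and 201 and 126 with DESeq2. The MCF10A share was 0.339% and 1.03% with a minimum of 50 CPM. The cause of these changes was not tested. Leaving out 1 library gave 0 to 1 members lower in irradiated HCT116 against MCF10A, 0 to 2 higher in irradiated mixtures, 2 to 5 higher and 0 to 3 lower in the response difference between lines, and 0 to 1 higher in irradiated mixtures against HCT116. Over all genes it gave 68 to 144 higher and 77 to 181 lower in mixtures against HCT116 without irradiation, 567 to 800 and 299 to 537 after it, and 48 to 137 and 12 to 60 for their response difference. Mean correlations of same-numbered residuals ran from -0.101 to 0.144 over 15 pairs of groups. The highest, 0.143 and 0.144, were those of HCT116 and mixtures under the same treatment. With 3 libraries per group these values cannot decide whether library numbers pair the samples. With the replicate block the TET1 response difference was 0.87 (adjusted p 0.0695), and the responses of MCF10A and HCT116 had 8 and 6 members lower, the counts without it. TET1 counts in MCF10A limit what depth can show there.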

Other observations

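Lists of genes that these enzymes are known to silence were also measured, as values. A list of 28 genes bound by PRC2 in many cell types held developmental genes and the cell cycle inhibitors CDKN2A and CDKN2B. Of these 28, 8 passed the filter on low counts in MCF10A and 14 in HCT116. After irradiation 1 rose and 3 fell in MCF10A (1 fell without NIR replicate 3), and 0 rose and 6 fell in HCT116 (1 rose without NIR replicate 1 or IR replicate 2). Of all genes tested, 29.2% were called lower and 26.2% higher in MCF10A, and 27.2% lower and 25.3% higher in HCT116. The cell cycle inhibitor CDKN2A, a textbook Polycomb target whose locus MCF10A is known to have lost, had 0 counts in the MCF10A monocultures and stood at 17.1 ± 0.675 CPM in HCT116 NIR and 9.91 ± 1.19 CPM in HCT116 IR (SD, n = 3; log2 fold change -0.78, edgeR adjusted p 6.88e-06). Its neighbour CDKN2B also had 0 counts in MCF10A, with 12.8 ± 1.25 and 15.0 ± 2.43 CPM in HCT116 (SD, n = 3; 0.23, adjusted p 0.138). HOXA13 fell in HCT116 from 17.0 ± 2.54 to 7.36 ± 0.464 CPM (SD, n = 3; -1.20, edgeR adjusted p 4.9e-08), and LHX2 (-1.62) and PAX6 (-1.48) fell as well. The mixtures gave the same direction for CDKN2A (-0.60), LHX2 (-1.12) and PAX6 (-0.81), all called.

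Of 18 germline genes commonly silenced by DNA methylation, 2 passed the filter in MCF10A and 3 in HCT116, and edgeR called 0 after irradiation in either line (1 higher in HCT116 without NIR replicate 1 or IR replicate 1). At an unadjusted p under 0.05 there were 0 as well, and DESeq2 called 0. These zeros cover only the genes that passed, and the rest of the list, near the floor, was not tested. Among the rest, DDX4 had 15 counts in HCT116 NIR and 52 in HCT116 IR, summed over libraries. It had 8 and 49 in the mixtures, and 0 and 5 in MCF10A. Others went the other way, SOHLH2 from 13 to 0 counts in MCF10A among them. The most abundant in HCT116 NIR was TEX14, at 3.75 ± 0.171 CPM, and in MCF10A NIR SYCP3, at 1.18 ± 0.200 CPM (SD, n = 3 each).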
